A study of Mus musculus with 18 samples.

Results

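The response of 4T1 cells to sildenafil was read from 6 of the 18 RNA sequencing libraries of the series: 3 from control cells and 3 from cells given the drug, chosen by their labels, with all genes of the table in view. 4T1 is a mouse mammary carcinoma cell line, grown from a tumour of a BALB/c mouse, that spreads from the mammary gland to lung, liver and bone when implanted. The cells were labelled wild type (W.T), were grown in RPMI medium with fetal bovine serum, and received either the solvent DMSO (control) or 100 µM sildenafil citrate for 24 hours. The other 12 libraries came from MC38 colon carcinoma cells treated for 24 hours and LLC Lewis lung carcinoma cells treated for 48 hours, with 3 control and 3 sildenafil libraries each. The title of the series names PDE5a, NPC1 and cholesterol trafficking, and the comparison asks which transcripts the drug changed in a mammary carcinoma line.

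Sildenafil inhibits phosphodiesterase 5, the enzyme that breaks down cyclic GMP. Cells sense cholesterol in the endoplasmic reticulum: when sterol is low there, the protein SCAP carries SREBP transcription factors to the Golgi, where they are cut and released to switch on genes of cholesterol synthesis and of LDL uptake. Cholesterol taken up in LDL is freed in the lysosome and leaves it through NPC2 and NPC1, so that sterol held in lysosomes does not reach the sensor. Interferons act through STAT and IRF transcription factors on a broad set of antiviral genes, and the transcription factor MYC drives genes of ribosome production.

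Whether replicate libraries were made from independently treated cultures is not stated in the labels. The p-values therefore reflect library-to-library spread, and that spread could be technical. The 6 libraries held between 41070021 and 61600646 counts. Levels are given in CPM (counts scaled to a common library total, with TMM factors over the 6 libraries). A change is the log2 fold change of sildenafil over control ± its standard error (SE), with n = 3 libraries per group, and a mean level is given ± the SD of the 3 libraries. "Rose" and "fell" are used of genes whose Benjamini-Hochberg adjusted p in edgeR's quasi-likelihood test was under 0.05. The third sildenafil library stood apart from the others of its group: the mean chi-square per gene against the others was 9.84 and 8.75, where 1 was expected from counting alone, and 2.89 between the others. The first control library also stood apart, at 4.83 and 6.26 against the others of its group and 2.87 between them. Without the third sildenafil library 4830 genes rose and 4734 fell, against 4658 and 4627 with it, and 8980 genes were called with and without it. Without the first control library 4470 rose and 4468 fell. The mitochondrial ribosomal RNA mt-Rnr1, chosen after its values were seen, stood at 43.9, 34.5 and 34.6 CPM in control and 100, 99.4 and 90.0 CPM in sildenafil libraries. The noncoding RNA Gm26917 stood at 166, 162 and 161 against 265, 239 and 275 CPM. Both were higher in every sildenafil library, and their part in the changes below was not tested.

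Of 13914 genes expressed highly enough to be tested, 4658 rose (33.5%) and 4627 fell (33.3%), and the median change over all of them was 0.0023. Larger changes were mostly rises: 834 genes (5.99%) rose at least 2-fold and 199 (1.43%) fell at least 2-fold. The sildenafil libraries lay above all 3 control libraries for 4971 genes (35.7%) and below all of them for 4913 (35.3%). Only 1 gene fell at least 4-fold, while 179 rose by as much. Among the 2459 genes above 100 CPM, 26% rose and 55.7% fell, and among the 1584 genes between 1 and 5 CPM, 37.8% rose and 15.1% fell. The counts within the gene lists below are read against those shares of all genes. Lists of abundant genes are also to be read against the shares above 100 CPM, where falls were more common.

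**Figure D1:**
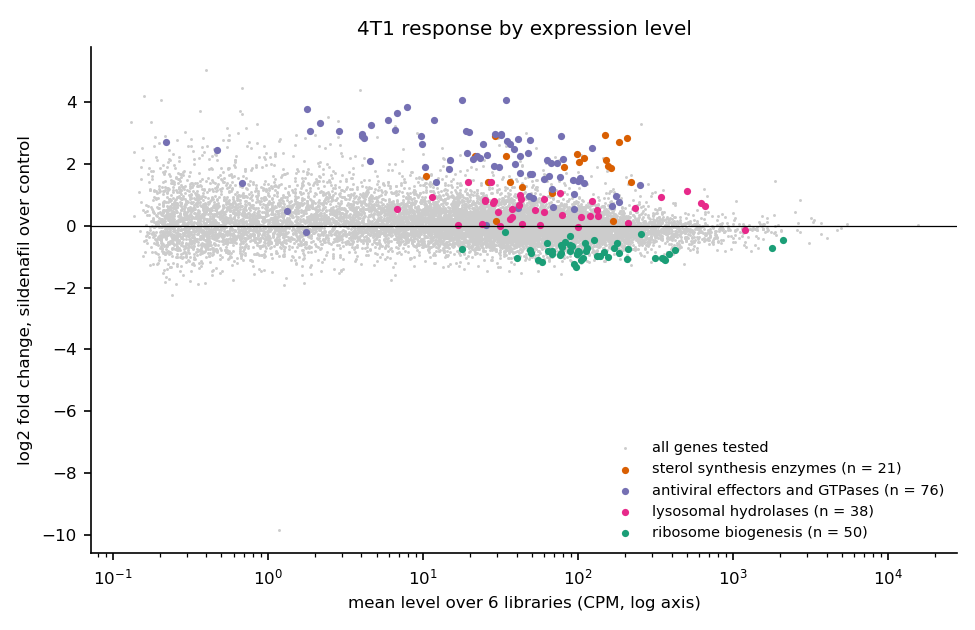
Change of each tested gene (log2 fold change, sildenafil over control, vertical axis) against its mean level over the 6 4T1 libraries (CPM, log axis), with sterol synthesis enzymes, antiviral effectors and interferon-inducible GTPases, lysosomal hydrolases and ribosome biogenesis genes coloured. The 21 sterol synthesis enzymes lie above 0, as do the antiviral effectors and GTPases except Slfn5, and the 50 ribosome biogenesis genes lie below 0. The lowest point is Exosc6, an RNA exosome subunit at 0 counts in the 3 sildenafil libraries, named after its value was seen. It stood at 0.460, 1.99 and 4.61 CPM in control libraries and was not called (adjusted p = 0.105), but it was called as lower with DESeq2 (adjusted p = 5.39e-07), with the replicate block (1.29e-06), without the first (0.000374) or the third control library (0.028) and in the fit of 18 libraries (0.0371).

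The 15 largest rises among genes of at least 5 CPM were mostly genes of the interferon response. Ifit3, which dampens viral RNA translation and relays antiviral signals, stood at 4.07, 3.89 and 3.50 CPM in the control libraries and at 68.0, 70.9 and 55.9 CPM in the sildenafil libraries. Every sildenafil library was far above every control library, with a rise of 4.08 ± 0.111. Its near copy Ifit3b (4.07) shares sequence with it, so the split of reads between the pair is uncertain. The list went on with Oas2 (3.83), Iigp1 (3.64), Slfn2 (3.42), Mx2 (3.42), H2-T24 (3.23), Ifi47 (3.09), Cmpk2 (3.05), Usp18 (3.05), Irf7 (3.00), Rsad2 (2.97) and Gbp3 (2.97). Of these Mx2 is annotated as a polymorphic pseudogene. The other 2 of the 15 were Insig1, a sterol sensor described below, and Dio2, the deiodinase that activates thyroid hormone.

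Dio2 stood at 1.98, 2.13 and 1.90 CPM in control and 13.2, 13.4 and 22.2 CPM in sildenafil libraries. The third sildenafil library was the highest, the other two agreed closely, and the rise was 3.00 ± 0.309.

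The 15 largest falls were smaller in size and mixed in function. S100a7a, a small calcium-binding protein of the S100 family, had 9.48, 10.2 and 9.06 CPM in control and 2.98, 3.14 and 2.43 CPM in sildenafil libraries, a change of -1.74 ± 0.0989. Hbegf, the heparin-binding ligand of the EGF receptor, went from 116, 113 and 119.5 CPM to 40.2, 41.5 and 36.4 CPM (-1.56 ± 0.0461). The groups did not overlap for either gene. A pair of gene kinds recurred among the 15: factors of ribosome and transfer RNA production (Heatr1, -1.32, and Trmt61a, -1.33) and host genes of small nucleolar RNAs (Snhg15, -1.45, and Snhg17, -1.29). Also among them were Ccnb1ip1 (-1.58), Ccdc137 (-1.46), Dlk2 (-1.33), Zdhhc23 (-1.32), Rnf39 (-1.31), Mcrip2 (-1.30), Zfp420 (-1.30) and the metalloprotease Adam12 (-1.29).

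By level per exon length, the most abundant gene of the control libraries was Eef1a1, the elongation factor that brings transfer RNAs to the ribosome, at 6143 CPM per kb, with 6255 CPM per kb in the sildenafil libraries and no call (adjusted p = 0.583). Next came Rps2-ps10, a transcribed copy of a ribosomal protein gene whose reads cannot be parted with certainty from its parent, at 4775 CPM per kb in control and 3607 CPM per kb in sildenafil libraries. The galectin Lgals1 had 4454 and 3695 CPM per kb and fell by 0.27 on the log2 scale. The ribosomal stalk protein gene Rplp1 had 4310 and 3843 CPM per kb. Ribosomal and elongation genes or their copies (Rps3a1, Rpl23a, Rplp0, Eef2 and the pseudogene Gm8730) and the pseudogene Gm10925 made up the rest of the 10.

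Genes of cholesterol synthesis rose as a block. All 8 enzymes of the mevalonate pathway rose, all by at least 2-fold, with a median change of 2.46. Their summed level was 253, 259.9 and 243 CPM in the control libraries and 1430.2, 1429 and 1423 CPM in the sildenafil libraries. In each of the 8 genes all sildenafil libraries lay above all control libraries, as they did for 35.7% of all tested genes. All 9 enzymes from squalene synthesis to removal of the C4 methyl groups rose as well (median 1.91, 8 by at least 2-fold), and so did the 4 late enzymes (median 1.16).

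Hmgcs1, the synthase that joins acetyl-CoA to acetoacetyl-CoA, stood at 49.7, 47.7 and 46.3 CPM in control and 308, 313 and 327 CPM in sildenafil libraries (2.72 ± 0.0365). Idi1, the isopentenyl diphosphate isomerase, stood at 36.1, 35.7 and 32.5 CPM and 264, 264 and 265 CPM. For both genes every sildenafil library lay far above every control library, and the spread within a group was small beside the shift. Fdps (2.85 ± 0.0454) and Mvd (2.90 ± 0.0460), which make farnesyl diphosphate and decarboxylate mevalonate diphosphate, rose by about as much as Idi1 (2.92 ± 0.0391), while the kinases Mvk (1.41 ± 0.0443) and Pmvk (1.41 ± 0.0403) rose least in the pathway. Past farnesyl diphosphate, squalene synthase Fdft1 rose by 2.31 ± 0.0418 and the lanosterol demethylase Cyp51 by 2.13 ± 0.0364. Lbr, a C14 reductase that is also a nuclear envelope protein, rose by only 0.14 ± 0.0321, and the isomerase Ebp by 0.15 ± 0.0452.

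The branch of the pathway that does not lead to sterols moved the other way. Of 13 enzymes of protein prenylation, ubiquinone, dolichol and geranylgeranyl diphosphate synthesis, 10 fell and 1 rose, with a median of -0.21. Pdss1, a subunit that makes the ubiquinone side chain, stood at 32.1, 33.9 and 34.7 CPM in control and 16.96, 15.96 and 14.1 CPM in sildenafil libraries (-1.09 ± 0.0620). Dhdds, of dolichol synthesis, was the 1 that rose (0.26 ± 0.0426), and Ggps1, which lengthens farnesyl to geranylgeranyl diphosphate, was not called (0.02 ± 0.0390, adjusted p = 0.672).

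The promoters of 2 of the enzymes that rose most are shown because both carry letters of known regulatory elements. Each stretch is the 160 bases before the annotated start, from RefSeq on GRCm38.p6 (the mm10 build), read 5′ to 3′ on the strand of the gene. Capitals mark matches, on either strand, to TCACNCCAC, a core of the sterol regulatory element bound by SREBP, or to CCAAT, the box bound by NF-Y.
Hmgcs1, chr13:119690191-119690350, plus strand: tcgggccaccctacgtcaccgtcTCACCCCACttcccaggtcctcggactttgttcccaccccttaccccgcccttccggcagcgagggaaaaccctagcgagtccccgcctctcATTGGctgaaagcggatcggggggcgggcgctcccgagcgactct
Idi1, chr13:8885446-8885605, plus strand: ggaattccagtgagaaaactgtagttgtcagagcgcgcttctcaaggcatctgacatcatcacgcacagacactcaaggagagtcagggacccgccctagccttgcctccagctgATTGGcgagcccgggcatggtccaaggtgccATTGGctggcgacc
In Hmgcs1 the sterol element core begins 137 bases before the start and the CCAAT box 45 bases before it, and in Idi1 the CCAAT boxes begin 45 and 14 bases before it. Windows of 250 bases before the start were found for 16 of the 21 sterol enzymes and for 9792 of the tested genes. CCAAT was present in 87.5% of the 16 and in 37.1% of the 9792. A high share was not particular to sterol enzymes. In the other lists searched it ran from 26.7% of 45 ribosome biogenesis genes to 78.6% of 14 clock genes, with 71.4% of 21 MHC class I, peptide loading and immunoproteasome genes. TCACNCCAC was present in 1 of the 16 (6.25%) and in 0.94% of the 9792. A match is a description of the letters and not evidence of binding.

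**Figure D2:**
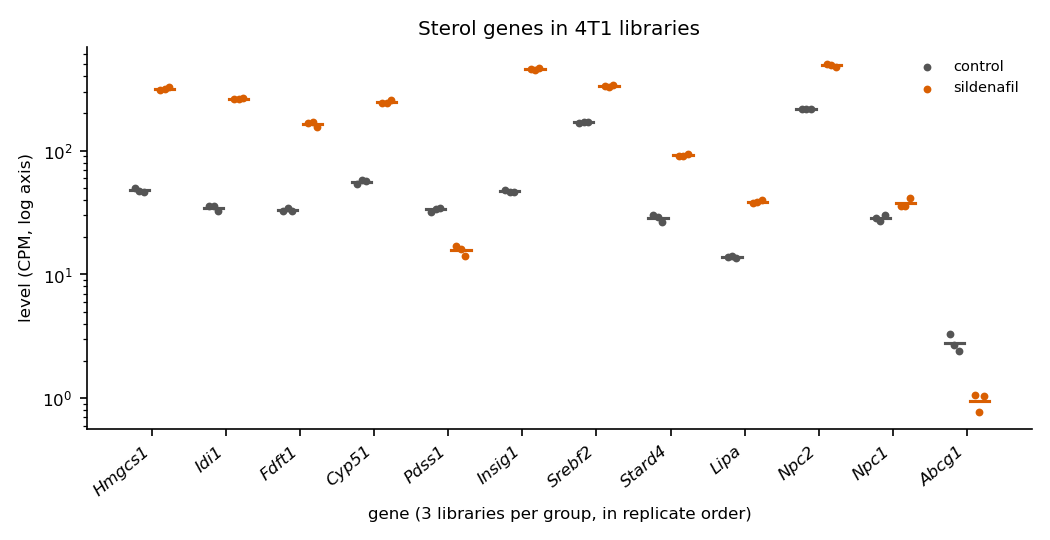
CPM (log axis) of 12 genes of sterol and isoprenoid synthesis, sterol sensing, carriage, lysosomal egress and efflux in each of the 3 control and 3 sildenafil libraries of 4T1. Points are libraries and horizontal lines are group means. The groups do not overlap for any of the 12 chosen genes. Pdss1 and Abcg1 lie lower in the sildenafil libraries and the other 10 lie higher. Over all 13914 tested genes the sildenafil libraries lay above all control libraries for 35.7% and below them for 35.3%.

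Insig1, which holds SCAP and SREBP in the endoplasmic reticulum when sterol is plentiful, rose most of the sterol genes (3.29 ± 0.0317). It stood at 47.8, 46.0 and 46.8 CPM in the control and 459.8, 449 and 466 CPM in the sildenafil libraries. Its relative Insig2 rose by 0.65 ± 0.0349. Srebf2, the SREBP of cholesterol genes, stood at 169, 170.5 and 171 CPM and 331, 329 and 337 CPM (0.97 ± 0.0269), whereas Srebf1, the SREBP of fatty acid genes, rose by 0.27 ± 0.0313. Of the 12 factors and sensors 6 rose and 4 fell, the latter with Scap (-0.21 ± 0.0295) and Erlin1 (-0.45 ± 0.0297), a membrane protein of the endoplasmic reticulum.

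Genes of lipoprotein uptake rose in 7 of 9 cases and none fell. The list counts Stard4, which is a cytosolic sterol carrier and not an uptake receptor, and Stard4 rose most of its members. It stood at 30.1, 29.2 and 26.6 CPM in control and 90.7, 90.9 and 93.4 CPM in sildenafil libraries, without overlap (1.68 ± 0.0441). The large receptor Lrp1 rose by 0.61 ± 0.0418.

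Of 22 genes of lysosomal sterol egress and sterol carriage 15 rose and 4 fell. Lipa, the acid lipase that frees cholesterol from LDL esters, stood at 13.7, 13.99 and 13.6 CPM in control and 38.2, 38.4 and 39.7 CPM in sildenafil libraries (1.49 ± 0.0444). Npc2, the lumenal carrier, stood at 217, 218 and 218 CPM and 499, 496 and 472 CPM (1.17 ± 0.0301). Npc1, its membrane partner, stood at 28.7, 27.2 and 30.1 CPM and 35.5, 35.9 and 41.8 CPM. The third sildenafil library was the highest for Npc1, no libraries of the groups overlapped, and the rise was 0.39 ± 0.0632 (adjusted p = 0.000124), smaller than that of Npc2 or Lipa. Gramd1a (0.67 ± 0.0584) and Gramd1c (0.88 ± 0.121), which carry plasma membrane cholesterol to the endoplasmic reticulum, rose. Gpr155, a lysosomal sterol sensor, fell (-0.68 ± 0.0843).

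LXR factors and sterol efflux genes went both ways, with 3 rises and 5 falls among 12 tested. Abcg1, an LXR target that exports sterol, stood at 3.32, 2.702 and 2.39 CPM in control and 1.05, 0.779 and 1.04 CPM in sildenafil libraries, with no overlap (-1.55 ± 0.179). Abca1, the other main exporter, was below the test's filter with 8, 2 and 8 reads in the control and 5, 4 and 2 in the sildenafil libraries. Soat1, which esterifies cholesterol for storage, fell (-0.28 ± 0.0337), and Nr1h2, the LXR beta receptor, rose (0.75 ± 0.0418).

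Fatty acid genes rose with the sterol genes. Of 21 tested, 18 rose and 1 fell, with a median of 0.84. Fasn, the fatty acid synthase, stood at 389, 391 and 394 CPM in control and 874, 862 and 964 CPM in sildenafil libraries (1.201 ± 0.0396). Scd2, a desaturase and the most abundant gene of the list, stood at 1024, 991 and 949.8 CPM and 2696, 2690.2 and 2762 CPM (1.46 ± 0.0337). Elovl6, which lengthens palmitate, rose by 1.77 ± 0.0382, Acacb, the mitochondrial acetyl-CoA carboxylase, by 1.66 ± 0.0646 and Acss2, the acetate-activating enzyme, by 1.61 ± 0.0376. Fads3, a relative of the fatty acid desaturases, was the 1 that fell (-0.64 ± 0.0508).

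Among 18 genes of triglyceride synthesis and storage 10 rose and 4 fell. Lpin1, a phosphatidate phosphatase that is also a coactivator, stood at 10.2, 9.66 and 9.66 CPM in control and 56.6, 56.3 and 63.1 CPM in sildenafil libraries (2.58 ± 0.0564). The hormone-sensitive lipase Lipe rose by 1.79 ± 0.0662, while the acyltransferases Dgat2 (-0.45 ± 0.0817) and Gpam (-0.26 ± 0.0366) fell. Of 9 genes that supply NADPH or acetoacetyl-CoA in the cytosol 7 rose, led by Idh1, the cytosolic isocitrate dehydrogenase, at 36.0, 35.4 and 33.3 CPM against 167, 168 and 182 CPM (2.30 ± 0.0439), and Aacs (1.47 ± 0.0354). The folate enzyme Mthfd1 fell (-0.94 ± 0.0352).

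The target of the drug was expressed at a low level. Pde5a stood at 0.439, 0.345 and 0.542 CPM in control and 0.861, 0.872 and 0.801 CPM in sildenafil libraries. The sildenafil libraries were all above the control libraries, with a rise of 0.95 ± 0.239 (adjusted p = 0.00308). Of 24 phosphodiesterase genes 9 were expressed highly enough to be tested, 5 rose and 1 fell. Per exon length, Pde6d, a carrier of lipid-modified proteins that does not itself cut cyclic nucleotides, led the tested ones with 15.6 CPM per kb in control, against 0.0449 for Pde5a, and rose (0.44 ± 0.0380). Pde12, a mitochondrial enzyme that trims poly(A), was the 1 that fell (-0.72 ± 0.0350). Among the cAMP-specific enzymes Pde4d (1.05 ± 0.172) and Pde4b (0.92 ± 0.0623) rose about as much as Pde5a. Pde2a, which is itself activated by cyclic GMP, was not called (0.82 ± 0.688, adjusted p = 0.337).

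Genes that make and read cyclic GMP were unevenly expressed. The subunits of soluble guanylate cyclase Gucy1a1, Gucy1a2 and Gucy1b1 had no read in any of the 6 libraries, which allows up to 0.0730 CPM in the shallowest. Prkg1, the type I kinase of cyclic GMP, had 0, 0 and 0 reads in the control and 0, 0 and 1 in the sildenafil libraries. Prkg2, the membrane-bound type II kinase, was well expressed at 197, 199 and 201 CPM in control and 149.7, 150 and 142 CPM in sildenafil libraries, and fell (-0.44 ± 0.0310). The natriuretic peptide receptor with a cyclase domain Npr2 rose from 10.8 ± 0.175 to 15.1 ± 1.60 CPM (0.48 ± 0.0731), and the clearance receptor Npr3 fell from 67.6 ± 1.27 to 35.3 ± 1.43 CPM (-0.94 ± 0.0385). The exporters of cyclic nucleotides moved apart, with Abcc5 higher (0.72 ± 0.0469) and Abcc4 lower (-0.18 ± 0.0382). Nos2, the inducible nitric oxide synthase, rose from 1.66 ± 0.159 to 5.34 ± 0.241 CPM (1.68 ± 0.113). Over the 23 tested genes of cyclic GMP and cyclic AMP signalling 10 rose and 9 fell, with a median of 0.16.

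Lysosomal genes rose broadly and by modest amounts. Of 38 lysosomal hydrolases and lumenal proteins 31 rose and 1 fell (median 0.55), of 17 subunits of the vacuolar proton pump 14 rose and 1 fell (median 0.35), and of 16 MiT/TFE and folliculin-Rag genes 14 rose and 1 fell (median 0.44). Gla, the alpha-galactosidase missing in Fabry disease, stood at 10.1, 11.2 and 10.7 CPM in control and 28.0, 28.8 and 28.5 CPM in sildenafil libraries (1.41 ± 0.0518). Grn, the precursor of lysosomal granulins, stood at 317, 313 and 323 CPM and 660.4, 667 and 731 CPM (1.11 ± 0.0381). Ctsd, the aspartic protease, rose by 0.92 ± 0.0280 and Ctsb by 0.73 ± 0.0303, whereas Ctsl, the most abundant protease of the list, was the 1 that fell (-0.13 ± 0.0285).

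Among the pump subunits Atp6v0d1 (0.89 ± 0.0336) and Atp6v1d (0.80 ± 0.0369) rose most and Atp6v0a2 fell (-0.17 ± 0.0389). Tfeb and Mitf, factors that switch on lysosomal genes, rose by 0.46 ± 0.0630 and 0.52 ± 0.0686, and Tfe3 was not called (0.06 ± 0.0347, adjusted p = 0.139). With library totals (adjusted p = 0.00687), upper quartile factors (0.0403) or a filter of 5 CPM in 3 libraries (0.0328) Tfe3 was called as higher. Gpnmb, a membrane glycoprotein induced when lysosomes are stressed, stood at 13.7, 13.3 and 14.1 CPM in control and 39.6, 41.0 and 48.1 CPM in sildenafil libraries, without overlap (1.64 ± 0.0711). The lysosomal calcium channel Mcoln1 rose by 0.72 ± 0.0448. Rraga, a Rag GTPase, fell slightly (-0.16 ± 0.0399). Without the third sildenafil library 12 rather than 14 of the MiT/TFE list rose.

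Of 33 autophagy genes tested, 21 rose and 4 fell. The members that rose most carry cargo or the membrane tag: Calcoco1 (1.17 ± 0.0883), Map1lc3a (1.17 ± 0.0538), Gabarap (1.05 ± 0.0290) and Bnip3 (1.01 ± 0.0801). Those that fell most, Atg2b (-0.42 ± 0.0353), Atg5 (-0.31 ± 0.0511) and Atg3 (-0.22 ± 0.0389), act in building or lipidating the membrane. Of 29 sphingolipid genes 19 rose and 5 fell. B4galt5, which makes lactosylceramide, rose from 63.7 ± 1.10 to 158 ± 5.48 CPM (1.31 ± 0.0348) and St3gal5, which turns it into a ganglioside, by 0.95 ± 0.0570. Smpd4 (-0.56 ± 0.0532), a neutral sphingomyelinase, and the ceramide synthase Cers6 (-0.48 ± 0.0351) fell.

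Interferon-response genes formed the other block of large rises. Of 60 antiviral effectors 58 rose and none fell, with a median of 2.01, and all 17 interferon-inducible GTPases rose, with a median of 2.83. The summed level of the antiviral effectors was 1657, 1581 and 1537 CPM in the control libraries and 4686, 4723 and 4025 CPM in the sildenafil libraries. The third sildenafil library was the lowest of its group and was still far above the controls, and without it 58 effectors rose again, with a median of 2.05. The 2 effectors without a call were Slfn3 (0.02 ± 0.0489) and Slfn5 (-0.20 ± 0.156) of the Schlafen family, in which Slfn2 (3.42 ± 0.0967) and Slfn8 (2.01 ± 0.0568) rose. Sequences are shared within the Schlafen, Oas1, Gbp, Tgtp and Ifit3 families, so the division of reads between their members is uncertain.

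The levels behind these rises differed widely. Isg15, the ubiquitin-like modifier, stood at 29.1, 28.7 and 28.7 CPM in control and 131, 126 and 96.4 CPM in sildenafil libraries (2.03 ± 0.131). Ifit1, which binds viral RNA that lacks a methylated cap, stood at 19.3, 18.2 and 17.7 CPM and 141, 143 and 126 CPM (2.90 ± 0.0539). Oas2, a sensor that makes the activator of RNase L, stood at 1.48, 0.709 and 0.961 CPM and 15.8, 17.4 and 11.2 CPM. These 3 genes had no overlap between groups, and the third sildenafil library was lowest for Isg15, Ifit1 and Oas2 alike. At the other end Ifitm3, which blocks viral entry, rose from 143 ± 1.36 to 359.6 ± 40.3 CPM (1.33 ± 0.0805) and Rnf213 from 136 ± 5.38 to 232 ± 11.9 CPM (0.77 ± 0.0404). Usp18, which removes Isg15 and restrains the receptor, rose by 3.05 ± 0.247.

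Among the GTPases, which attack the vacuoles of intracellular parasites, Gbp2 stood at 10.7, 9.60 and 10.6 CPM in control and 73.8, 74.1 and 67.2 CPM in sildenafil libraries (2.80 ± 0.0556). Irgm1, the most abundant of them, stood at 25.3, 22.8 and 22.5 CPM and 105, 105 and 96.3 CPM (2.12 ± 0.0513). Iigp1 (3.64 ± 0.148), Gbp10 (3.34 ± 0.177) and Gbp5 (3.25 ± 0.116) rose most, from about 1 CPM or less. Gbp8 rose least (1.37 ± 0.243).

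**Figure D3:**
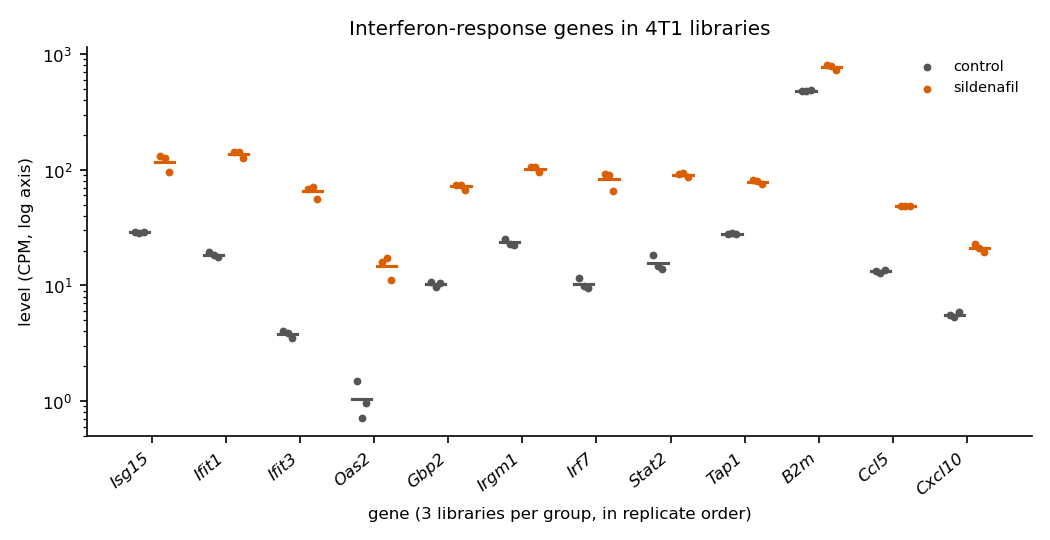
CPM (log axis) of 12 interferon-response, antigen presentation and chemokine genes in each of the 3 control and 3 sildenafil libraries of 4T1. Points are libraries and horizontal lines are group means. No sildenafil library reaches down to a control library, which also held for 35.7% of all 13914 tested genes. The third sildenafil library is the lowest of its group for Irf7 (65.4 CPM against 90.7 and 91.0).

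Promoters of 4 of these genes are printed to show the letters they hold at the site where interferon-activated factors are known to bind. Each stretch is the 160 bases before the annotated start from RefSeq on GRCm38.p6, read 5′ to 3′ on the strand of the gene. Capitals mark matches on either strand to GAAANNGAA, the core of the interferon-stimulated response element, and matches may overlap.
Ifit1, chr19:34640729-34640888, plus strand: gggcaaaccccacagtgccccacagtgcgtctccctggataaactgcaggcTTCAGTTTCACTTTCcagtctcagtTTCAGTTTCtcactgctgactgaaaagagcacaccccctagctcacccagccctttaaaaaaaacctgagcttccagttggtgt
Ifit3, chr19:34583369-34583528, plus strand: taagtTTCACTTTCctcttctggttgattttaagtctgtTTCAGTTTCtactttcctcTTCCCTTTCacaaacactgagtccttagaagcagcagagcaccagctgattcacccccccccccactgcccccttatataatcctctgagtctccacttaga
Isg15, chr4:156200819-156200978, minus strand: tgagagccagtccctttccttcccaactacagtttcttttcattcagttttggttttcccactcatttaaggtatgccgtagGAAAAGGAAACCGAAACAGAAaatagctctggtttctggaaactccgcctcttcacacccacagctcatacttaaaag
Gbp2, chr3:142620503-142620662, plus strand: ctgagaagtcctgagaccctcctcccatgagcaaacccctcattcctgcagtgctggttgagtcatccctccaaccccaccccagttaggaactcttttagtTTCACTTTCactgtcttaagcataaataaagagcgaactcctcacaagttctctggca
The core occurs 3 times in Ifit1, Ifit3 and Isg15 and in Gbp2 begins 58 bases before the start. Over the 250 bases before the start it was present in 40.4% of 47 antiviral effectors, in 90.9% of 11 GTPases and in 6.07% of the 9792 tested genes with a window. TTCNNNGAA, the gamma-activated site, was present in 10.6%, 54.5% and 5.89% of the same sets. In the ribosome biogenesis genes, which fell, the share with GAAANNGAA was 4.44% of 45. Lists that rose also had low shares: 19% of 21 MHC class I, peptide loading and immunoproteasome genes and 6.25% of 16 sterol enzymes. A match describes the letters and is not evidence of binding, and its part in the changes was not tested.

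The sensors and signalling genes of the response rose as well, by less. Of 20 nucleic acid sensors and adaptors 17 rose and 2 fell. The RNA sensors Ddx58, which encodes RIG-I, and Ifih1, which encodes MDA5, stood at 50.5, 47.1 and 47.2 and 30.1, 30.6 and 27.7 CPM in control and at 130.3, 134 and 127 and 91.2, 95.7 and 90.0 CPM in sildenafil libraries (1.43 ± 0.0385 and 1.65 ± 0.0437). Trex1, an exonuclease that removes cytosolic DNA, rose by 1.38 ± 0.0646. Cgas, the DNA sensor, fell from 35.1, 35.1 and 34.9 CPM to 22.3, 23.04 and 21.4 CPM (-0.65 ± 0.0430), and its adaptor Tmem173, which encodes STING, rose by 0.27 ± 0.0452.

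Of 25 tested interferon receptors, STATs and IRFs 22 rose and none fell. Irf7 stood at 11.7, 9.89 and 9.43 CPM in control and 91.0, 90.7 and 65.4 CPM in sildenafil libraries, lowest in the third (3.00 ± 0.191). Stat2 stood at 18.3, 14.6 and 13.99 CPM and 91.2, 93.6 and 86.4 CPM (2.53 ± 0.0843). Irf9, which binds it in the factor that type I interferon activates, rose by 1.44 ± 0.0802. Irf3, which is held inactive until phosphorylated, rose by 0.16 ± 0.0493. The interferons themselves were near 0. Ifnb1 had 0, 2 and 2 reads in the control and 6, 1 and 2 in the sildenafil libraries, Ifng 0, 3 and 0 and 0, 2 and 0, and Ifna2, Ifna4 and Ifnl2 none in any, so no change in their RNA was detectable at this depth.

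Antigen presentation genes rose together. Of 27 MHC class I, peptide loading and immunoproteasome genes 24 rose and none fell (median 0.69). B2m, the light chain of class I molecules, stood at 476, 475 and 486 CPM in control and 809, 786 and 726 CPM in sildenafil libraries (0.69 ± 0.0378). Tap1, a subunit of the peptide transporter, stood at 27.8, 28.3 and 27.6 CPM and 81.4, 79.9 and 74.9 CPM (1.496 ± 0.0403). Psmb9, an immunoproteasome subunit, rose by 1.55 ± 0.0731 and Nlrc5, the class I transactivator, by 0.76 ± 0.0415. The non-classical heavy chains H2-T24 (3.23 ± 0.194) and H2-T23 (2.18 ± 0.0983) rose more than H2-K1 (0.66 ± 0.0344) or H2-D1 (0.45 ± 0.0307). 4T1 comes from BALB/c, whose MHC alleles differ from the reference genome, and heavy chain genes share sequence, so their counts are uncertain. Of the class II genes Cd74 (0.85 ± 0.0530) and H2-DMa (0.37 ± 0.0829) were high enough to be tested, and H2-Ab1 had 5, 3 and 4 reads in control and 2, 8 and 4 in sildenafil libraries.

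Among 14 immune checkpoint ligands 10 rose and 1 fell. Cd274, which encodes PD-L1, stood at 5.43, 5.25 and 5.15 CPM in control and 8.86, 9.61 and 10.1 CPM in sildenafil libraries (0.85 ± 0.0764). Vsir, which encodes VISTA, stood at 2.74, 2.51 and 2.68 CPM and 9.14, 9.09 and 9.66 CPM (1.81 ± 0.0838), and the galectin Lgals9 rose by 1.67 ± 0.120. Ulbp1, a ligand of the activating receptor NKG2D, was the 1 that fell (-0.26 ± 0.0462), and Cd47, the signal against engulfment, rose by 0.19 ± 0.0292.

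Of 29 chemokines and cytokines tested, 19 rose and 3 fell. Ccl5, which draws T cells and monocytes, stood at 13.2, 12.8 and 13.6 CPM in control and 49.0, 48.2 and 48.3 CPM in sildenafil libraries (1.88 ± 0.0436). Cxcl10, the interferon-induced ligand of CXCR3, stood at 5.56, 5.29 and 5.84 CPM and 22.8, 21.2 and 19.3 CPM (1.93 ± 0.0739). Il15, a growth factor of NK cells, rose from 1.05 ± 0.0638 to 3.91 ± 0.321 CPM (1.88 ± 0.135), and Csf3, the granulocyte colony-stimulating factor, from 31.3 ± 0.822 to 75.2 ± 2.34 CPM (1.26 ± 0.0382). Csf1, the macrophage colony-stimulating factor and among the most abundant of these genes, fell from 502, 498 and 499.9 CPM to 306, 313 and 309.8 CPM (-0.69 ± 0.0267). Cxcl9 stayed below the filter with 2, 8 and 1 reads in control and 10, 4 and 4 in sildenafil libraries. NF-kB genes were split, with 9 of 17 up and 5 down. The IkB family members Bcl3 (1.02 ± 0.137), Nfkbiz (0.79 ± 0.0438) and Nfkbia (0.52 ± 0.0322) rose, and Tnfaip3 (-0.44 ± 0.0330) and the subunit Rela (-0.26 ± 0.0438) fell.

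Genes of ribosome production fell as a block. All 50 tested ribosome biogenesis factors fell, 13 of them at least 2-fold, with a median of -0.84. Their summed level was 12844, 13233 and 13111 CPM in the control libraries and 7854, 7919.5 and 7531 CPM in the sildenafil libraries. Heatr1, of the small subunit processome, stood at 133, 141 and 142 CPM in control and 56.1, 56.2 and 53.8 CPM in sildenafil libraries (-1.32 ± 0.0362). Nop58, a core protein of box C/D particles, stood at 478, 501 and 501 CPM and 232, 234 and 224 CPM (-1.10 ± 0.0308). Ncl, the nucleolin gene (-0.73 ± 0.0309), Polr1b, a subunit of RNA polymerase I (-1.05 ± 0.0378), and Ubtf, its activator (-0.27 ± 0.0271), also fell. Of 13 host genes of small nucleolar RNAs 12 fell and 1 rose. Snhg1 stood at 303, 306 and 322 CPM and 127, 126 and 132 CPM (-1.28 ± 0.0326), Gas5 fell (-0.94 ± 0.0375), and Snhg14, at about 2 CPM, rose by 0.43 ± 0.147, a call lost without the second control, the third control, the first sildenafil or the third sildenafil library (adjusted p of 0.0585 to 0.0853).

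The ribosomal proteins themselves changed little. Of 65 genes 40 fell and 6 rose, with a median of -0.12, and the largest change was Rps2 (-0.44 ± 0.0713), whose reads are shared with copies in the genome. That split depends on scaling: with library totals alone 24 fell and 16 rose, and without the third sildenafil library 40 fell and 13 rose. Among all tested genes above 100 CPM, 26% rose and 55.7% fell, with a median of -0.122.

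Myc fell while several of its antagonists rose, and of 12 genes of the MYC network tested 7 rose and 3 fell. Myc stood at 658, 669.9 and 681 CPM in control and 287, 289 and 285 CPM in sildenafil libraries. The replicates agreed closely, the groups were far apart and the change was -1.22 ± 0.0279 (adjusted p = 1.41e-12). Mxd4 stood at 19.6, 18.0 and 16.6 CPM and 65.0, 66.3 and 75.1 CPM (1.92 ± 0.0682). Mxd1 rose by 1.64 ± 0.0768, Mxd3 by 0.53 ± 0.0981, Mnt by 0.38 ± 0.0498 and Mxi1 by 0.37 ± 0.0365, all of which compete with MYC for its partner MAX. Max fell slightly (-0.21 ± 0.0340).

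S-phase genes fell in 54 of 58 cases and none rose, with a median of -0.40. Orc2, of the origin recognition complex, stood at 117, 122 and 123 CPM in control and 56.1, 54.5 and 56.2 CPM in sildenafil libraries (-1.12 ± 0.0342). Cdc6 (-0.82 ± 0.0508), which loads the helicase, and Rrm2 (-0.63 ± 0.0442), which supplies nucleotides, fell by more than the helicase subunits Mcm2 (-0.52 ± 0.0512) and Mcm7 (-0.39 ± 0.0288). Mitosis genes fell by less, in 32 of 51 cases with 6 rises and a median of -0.16. The 51 genes are abundant, with a summed control mean of 7201.5 CPM. Among all tested genes above 100 CPM 55.7% fell, with a median of -0.122. Mybl2 (-0.85 ± 0.0342), which activates mitosis genes, fell most of the list and Pttg1, the securin, rose (0.53 ± 0.0715), while Mki67 was not called (0.07 ± 0.0421, adjusted p = 0.175). With library totals alone Mki67 was called as higher (0.14, adjusted p = 0.0158), 23 mitosis genes fell and 11 rose, and without the third sildenafil library 31 fell and 10 rose. Among 19 cyclins, kinases and their inhibitors 7 rose and 9 fell. Ccnd1, the cyclin of early G1, stood at 1162, 1224 and 1239 CPM and 724, 714 and 709 CPM (-0.76 ± 0.0316). The FOXO target Ccng2 stood at 16.9, 15.8 and 15.2 CPM and 65.3, 69.3 and 70.6 CPM (2.09 ± 0.0486), and Cdkn1b, which encodes p27, rose by 0.60 ± 0.0297. In bulk RNA fewer cells of a kind, here of a cell cycle phase, and less RNA per cell cannot be told apart.

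**Figure D4:**
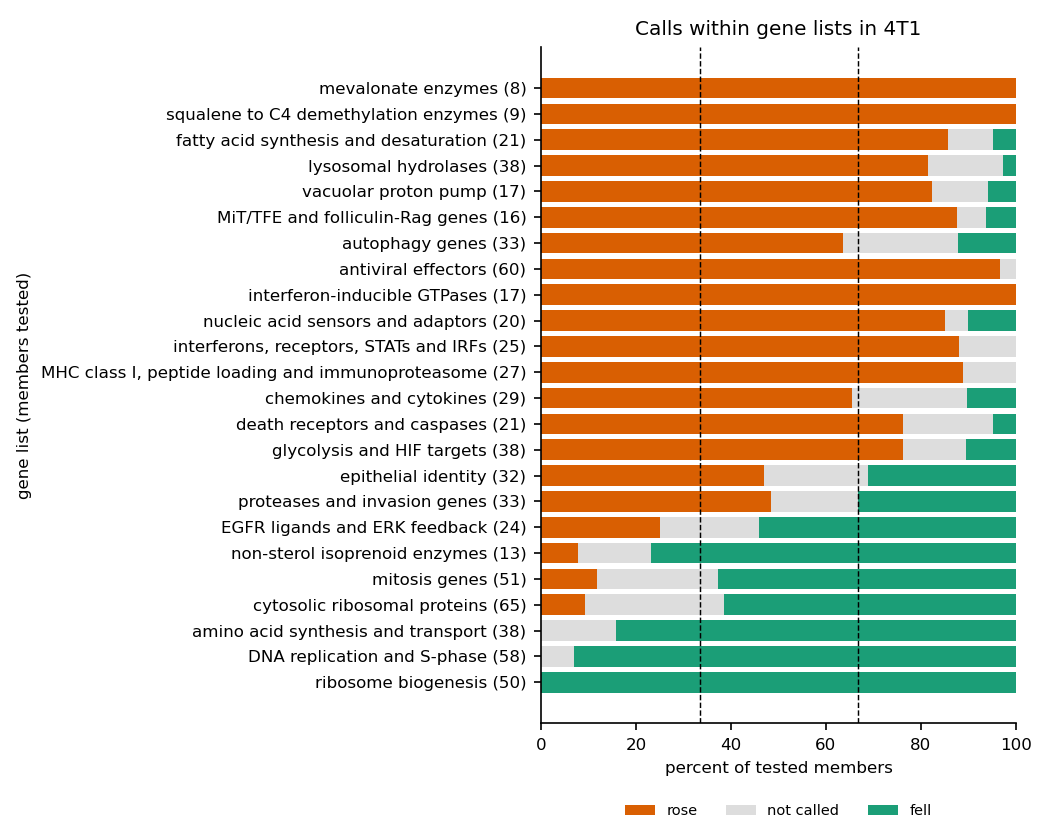
Share of tested members (percent, horizontal axis) that rose, fell or were not called in 24 gene lists of the 4T1 comparison, with the number tested beside each name. The 2 dashed lines mark the shares over all 13914 genes (33.5% rose and 33.3% fell); sterol, interferon and lysosomal lists are mostly rises, and ribosome biogenesis, S-phase and amino acid lists are mostly falls.

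Genes of amino acid supply fell in 32 of 38 cases and none rose (median -0.37). Slc3a2, the shared chain of amino acid exchangers, stood at 542, 549 and 570.2 CPM in control and 336, 340 and 332 CPM in sildenafil libraries (-0.72 ± 0.0294). Prodh, which breaks down proline, fell most (-1.21 ± 0.0486), followed by Shmt1 (-0.96 ± 0.0492) of serine metabolism and the threonyl-tRNA synthetase Tars (-0.85 ± 0.0276). Atf4, the factor that drives many of these genes, was not called (0.06 ± 0.0370, adjusted p = 0.177; 0.11 and 0.000163 without the third sildenafil library, 0.13 and 0.00359 with library totals, and 0.09 and 0.0474 with upper quartile factors), and of 19 genes of the ATF4 and CHOP program 6 rose and 9 fell. Ddit4, an inhibitor of mTORC1, rose from 200.1 ± 2.32 to 393 ± 8.93 CPM (0.97 ± 0.0287), the kinase Eif2ak3 (0.80 ± 0.0585) and Ddit3, which encodes CHOP (0.58 ± 0.0355), rose, and Chac1 fell (-0.72 ± 0.0527).

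Of 21 chaperone and unfolded protein response genes of the endoplasmic reticulum 10 rose and 4 fell. Hspa5, the chaperone BiP, stood at 3558, 3726 and 3715 CPM in control and 2465, 2495 and 2493 CPM in sildenafil libraries (-0.56 ± 0.0306). The co-chaperone Dnajb9 rose (0.74 ± 0.0517), as did Edem1 (0.43 ± 0.0331), which directs misfolded proteins to degradation. Of 23 heat shock genes 12 fell and 7 rose, with Hspa4 (-0.68 ± 0.0279), Hspd1 (-0.58 ± 0.0331) and the factor Hsf1 (-0.51 ± 0.0374) lower and Hspa1b (0.44 ± 0.0708) and Hsp90ab1 (0.20 ± 0.0326) higher.

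Growth factor signalling genes fell more often than they rose. Of 24 EGF receptor ligands and ERK feedback genes 13 fell and 6 rose. Beside Hbegf, the phosphatase Dusp5 stood at 59.3, 62.6 and 63.3 CPM in control and 28.4, 28.3 and 29.0 CPM in sildenafil libraries (-1.11 ± 0.0389). Errfi1, which inhibits the receptor, fell (-0.95 ± 0.0345), and Etv5 (-0.60 ± 0.0367) and Spry4 (-0.61 ± 0.0733), targets of ERK, fell. Dusp6, another ERK target, was not called at 115 ± 3.45 and 114 ± 4.43 CPM (adjusted p = 0.979), and Dusp1 (0.73 ± 0.0672), Erbb3 (0.70 ± 0.0510) and Dusp4 (0.62 ± 0.0581) rose. Of 22 immediate early and AP-1 genes 13 rose and 7 fell. Fosl1, the AP-1 member FRA1, stood at 170.4, 172 and 174 CPM and 78.2, 76.7 and 82.8 CPM (-1.12 ± 0.0343), while Jund rose by 0.73 ± 0.0291 and Nr4a2, a target of the cAMP-responsive factor CREB, by 0.93 ± 0.109.

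The promoter of Dio2, likewise known to respond to cyclic AMP, is printed because it holds TGACGTCA, the full cyclic AMP response element, in capitals. It covers 160 bases before the start, from RefSeq on GRCm38.p6.
Dio2, chr12:90739039-90739198, minus strand: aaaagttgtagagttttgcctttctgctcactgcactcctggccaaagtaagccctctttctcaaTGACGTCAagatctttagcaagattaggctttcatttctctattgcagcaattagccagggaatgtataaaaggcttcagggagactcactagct
The match begins 95 bases before the start, and 2.83% of the 9792 tested genes with a window hold it in their 250 bases. It describes the letters and is not evidence of binding, and a part of cyclic AMP in the rise of Dio2 was not tested.

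Cytoskeletal and matrix genes moved in both directions. Of 26 targets and factors of YAP and TAZ 14 fell and 8 rose. Amotl2 fell from 178 ± 0.720 to 86.4 ± 0.672 CPM (-1.04 ± 0.0284), as did Ccn2, also called CTGF (-1.04 ± 0.0968), and Ajuba (-1.03 ± 0.0313), while Wwtr1, which encodes TAZ, rose by 0.56 ± 0.0308. Of 22 SRF and actin genes 13 fell and 5 rose (3 without the first or the second control library), most by small amounts, with Fhl2 (-0.55 ± 0.0344) and Mrtfa (-0.46 ± 0.0486) lowest. Among 14 tubulins 5 rose and 6 fell: Tuba1a rose from 102 ± 3.95 to 231 ± 1.24 CPM (1.17 ± 0.0325) and the more abundant Tuba1b fell from 1425 ± 40 to 916 ± 61.1 CPM (-0.64 ± 0.0441), though alpha tubulin genes share sequence.

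Genes linked to invasion were split, with 16 of 33 up and 11 down. The integrin Itga3, one of the most abundant, stood at 1785, 1776 and 1823 CPM in control and 1096, 1081 and 1119 CPM in sildenafil libraries (-0.71 ± 0.0291). Itgb3, the integrin beta 3 chain, stood at 1.55, 1.71 and 1.65 CPM and 6.09, 6.20 and 6.93 CPM (1.965 ± 0.107). Spp1, which encodes osteopontin, rose from 463 ± 5.66 to 894 ± 63.3 CPM (0.95 ± 0.0433), Lcn2 by 1.51 ± 0.118, S100a4 by 0.68 ± 0.0408 and the membrane protease Mmp14 by 0.56 ± 0.0302. The urokinase receptor Plaur fell (-0.55 ± 0.0565). Of 31 collagen and matrix genes 9 rose and 10 fell, among them Col6a1 (1.04 ± 0.0734) and Col18a1 (-0.47 ± 0.0410). In the TGF-beta list 13 of 30 rose and 10 fell, with Id2 up (1.27 ± 0.0637), Tgfbr3 up (1.06 ± 0.0781) and Bmp7 (-0.86 ± 0.0670) and Ltbp1 (-0.75 ± 0.0268) down.

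The libraries carried the epithelial markers Epcam and Krt8. With factors over all 18 libraries, control means of Krt8 were 753 CPM in 4T1 and 2547 CPM in MC38, so Krt8 is not particular to 4T1. Vim, a mesenchymal gene, was abundant on the same scale, at a control mean of 2395 CPM in 4T1. Epcam stood at 56.9, 59.4 and 57.4 CPM in control and 71.9, 69.9 and 69.5 CPM in sildenafil libraries (0.28 ± 0.0347). Krt8 stood at 756, 805 and 799.8 and 603, 595 and 589.6 CPM (-0.40 ± 0.0313). Of 38 epithelial identity genes 32 were high enough to be tested, 15 rose and 10 fell, and Krt6a and Elf5 had no read in any library. Jup, the plakoglobin of cell junctions, rose most (1.02 ± 0.0530), Krt19 rose (0.81 ± 0.0518), Krt7 fell (-0.72 ± 0.0385) and Tjp1, the junction protein ZO-1, fell (-0.44 ± 0.0392). Of 9 tested mesenchymal genes 6 rose and 1 fell, with Pdgfra up from 28.8 ± 1.47 to 55.7 ± 4.86 CPM (0.95 ± 0.0610) and Vim slightly up (0.11 ± 0.0284), and with Cdh2, Snai2 and Twist2 without a read in any library.

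Markers of other cell types were mostly absent. Of 22 leukocyte markers 4 were high enough to be tested and all 4 rose: Cd68 (1.93 ± 0.0471), Cd74 (0.85 ± 0.0530), Cd14 (0.68 ± 0.0744) and S100a8 (1.86 ± 0.447). The defining marker Ptprc had 0.0627, 0.0766 and 0.0985 CPM in control and 0.128, 0.0928 and 0.0943 CPM in sildenafil libraries, and Cd3e, Cd3d, Cd8a, Adgre1 and Tyrobp had no read in any. The summed level of the list was 42.1, 43.5 and 44.1 CPM in control and 94.6, 95.2 and 102 CPM in sildenafil libraries, nearly all of it Cd68, Cd74 and Cd14. Of 12 fibroblast markers 4 were tested, 2 rose and 1 fell, with Col1a1 at 0.566 ± 0.103 and 0.615 ± 0.182 CPM and Col3a1 and Lum without a read. The fibroblast sum, mostly Pdgfra and Col6a1, was 59.2, 52.9 and 56.8 CPM and 103, 103 and 117 CPM. Of 12 endothelial markers 3 were tested and Flt1 rose (0.52 ± 0.0623), with Cdh5 at 0.0418, 0.0383 and 0 CPM in control and 0.0638, 0.130 and 0.0236 CPM in sildenafil libraries and Kdr, Emcn and Tie1 without a read.

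Genes of cell death shifted toward higher levels. Of 21 death receptor and caspase genes 16 rose and 1 fell. Fas, a death receptor, rose from 5.00 ± 0.507 to 14.6 ± 0.315 CPM (1.56 ± 0.0736), Tnfsf10, which encodes TRAIL, from 0.491 ± 0.0647 to 5.13 ± 0.272 CPM (3.38 ± 0.146) and Casp1 from 0.954 ± 0.0830 to 4.93 ± 0.386 CPM (2.36 ± 0.133). Fas, Tnfsf10 and Casp1 are also known to be induced by interferon. Of 15 BCL2 family genes 7 rose and 3 fell. Bmf, a sensor of cytoskeletal stress, stood at 3.89, 2.87 and 3.13 CPM and 15.8, 16.3 and 17.9 CPM (2.33 ± 0.0953), Bcl2l11, which encodes BIM, rose by 0.78 ± 0.0514, and the survival gene Bcl2l1 fell (-0.35 ± 0.0380).

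Targets of p53 were split, with 11 of 24 up and 7 down. Trp53 itself stood at 150.1, 155 and 156 CPM in control and 77.3, 77.3 and 90.0 CPM in sildenafil libraries (-0.92 ± 0.0529). Trp53inp1 rose from 8.70 ± 0.373 to 52.95 ± 6.98 CPM (2.60 ± 0.0972) and Cdkn1a, which encodes p21, by 0.35 ± 0.0444, while Aen (-1.24 ± 0.0406) and Plk2 (-1.14 ± 0.0364) fell.

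Of 38 glycolysis and HIF target genes 29 rose and 4 fell. Aldoc, an aldolase, stood at 28.4, 24.0 and 22.5 CPM in control and 117, 120.2 and 113 CPM in sildenafil libraries (2.22 ± 0.0706). Eno2 (1.31 ± 0.106) and Ndrg1 (0.79 ± 0.0297) rose, and the abundant enolase Eno1 (-0.37 ± 0.0278) and the lactate exporter Slc16a1 (-0.47 ± 0.0335) fell. Of 24 PPAR and fatty acid oxidation genes 17 rose and 2 fell, led by Cpt1a, the gate of mitochondrial fatty acid entry, at 29.1 ± 0.954 and 60.2 ± 6.68 CPM (1.04 ± 0.0706). Of 26 NRF2 targets 16 rose and 6 fell. The glutathione transferases Gstm1 (1.78 ± 0.100) and Gsta4 (1.74 ± 0.0503) led, Hmox1 was not called (0.07 ± 0.0357, adjusted p = 0.115, but 0.0246 without the third sildenafil library, 0.00352 with library totals, 0.0291 with upper quartile factors and 0.0228 with the 5 CPM filter) and the glutathione synthesis genes Gclc (-0.12 ± 0.0342) and Gclm (-0.16 ± 0.0301) fell slightly.

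Of 42 nuclear genes of oxidative phosphorylation 20 fell and 9 rose (median -0.07), with Cycs, the cytochrome c gene, lower (-0.64 ± 0.0479) and Cox7a2 higher (0.44 ± 0.0493). Among all tested genes above 100 CPM, 26% rose and 55.7% fell, with a median of -0.122. Of 13 mitochondrially encoded mRNAs 3 fell and none rose. The first control library was the highest control for most of them, as for mt-Nd5 with 392, 320.4 and 284 CPM in control and 212, 223 and 219 CPM in sildenafil libraries (-0.61 ± 0.131). Without the second or the third sildenafil library none of the 13 was called, without the first only 1 fell, and without the first control library 2 rose.

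Of 17 clock genes tested 9 rose and 6 fell. Dbp, an output gene of the clock, stood at 6.04, 5.58 and 5.07 CPM in control and 23.2, 22.6 and 23.8 CPM in sildenafil libraries (2.05 ± 0.0649). Per3 (1.44 ± 0.109), Bhlhe40 (1.17 ± 0.0413) and Tef (0.94 ± 0.0353) rose, and Arntl, which encodes the activator BMAL1, fell from 42.8 ± 0.423 to 26.5 ± 0.963 CPM (-0.69 ± 0.0412), as did Cry1 (-0.70 ± 0.0493) and Clock (-0.18 ± 0.0343). A single time point does not separate a shift of phase from a change of level.

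Among 15 drug transporter and xenobiotic genes 9 rose and 4 fell. The exporter gene Abcb1a rose from 1.08 ± 0.169 to 2.93 ± 0.144 CPM (1.43 ± 0.151), Abcc3 by 0.87 ± 0.0770 and Aldh3a1 by 1.08 ± 0.0557, and Abcg2 fell (-0.75 ± 0.125). Ugt1a6a, which shares exons with other Ugt1a genes, stood at 0.0627, 0 and 0 CPM in control and 0.925, 0.668 and 0.731 CPM in sildenafil libraries. Of 15 metal genes 7 rose and 7 fell. Ftl1, the ferritin light chain, rose from 1952 ± 9.08 to 3447 ± 7.15 CPM (0.82 ± 0.0280), the iron exporter Slc40a1 by 1.28 ± 0.127 and the metallothionein Mt2 by 0.71 ± 0.0397, while the zinc importer Slc39a14 fell (-0.71 ± 0.0305). Of 28 Wnt and Notch genes 12 rose and 9 fell, with Hes6 up (1.26 ± 0.0708) and Tcf7 down (-0.91 ± 0.0832). Replication-dependent histone mRNAs carry no poly(A) tail and were at low levels here. Of 32 tested, 1 rose and 6 fell, of which 2 were left without the third control or the first sildenafil library and 3 without the second control library. Of 6 nuclear-retained long noncoding RNAs 2 rose and 1 fell. The last was Mir17hg, the host of a microRNA cluster that MYC activates (-1.202 ± 0.286), a call lost without the first (adjusted p = 0.064) or second (adjusted p = 0.071) sildenafil library. Without the first control library 4 of the 6 rose. Malat1 was not called, at 84.7, 54.9 and 49.3 CPM in control and 98.2, 98.3 and 132 CPM in sildenafil libraries (0.79 ± 0.275, adjusted p = 0.062), and without the first control library it was (1.06, adjusted p = 0.00847). Malat1 was also called as higher with DESeq2 (adjusted p = 0.0116), the 5 CPM filter (0.0474) and the fit of 18 libraries (0.0015).

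The response of 4T1 was set beside that of the other lines by testing the difference in log2 fold change over all 18 libraries. Of 16040 genes tested, the change in 4T1 was higher than that in MC38 for 2683 (16.7%) and lower for 2867 (17.9%), and relative to LLC it was higher for 3246 (20.2%) and lower for 3493 (21.8%). Both differences had the same sign and passed the test for 3940 genes, 1768 higher and 2172 lower in 4T1. Line and time cannot be told apart against LLC, which was treated for 48 hours, and Gm26917 was far more abundant in MC38 and LLC libraries (control means of 11720 ± 2788 and 19990 ± 9930 CPM, SD over 3 libraries) than in 4T1 (156 ± 2.93 CPM). Its part in these differences was not tested.

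Interferon-response genes set 4T1 apart. The median change of the antiviral effectors was 2.03 in 4T1, 0.32 in MC38 and 0.38 in LLC, and of 61 tested the change was higher in 4T1 for 53 against MC38 and 43 against LLC and lower for none in either. For the 18 GTPases it was higher for 15 and 8. Ifit3 stood, with factors set over all 18 libraries, at 3.91, 3.73 and 3.33 CPM in control and 66.2, 68.8 and 53.9 CPM in sildenafil libraries of 4T1, at 9.22, 7.80 and 8.57 and 15.3, 13.6 and 14.1 CPM in MC38, and at 0.372, 0.624 and 0.546 and 1.02, 1.10 and 0.805 CPM in LLC. Its change was higher in 4T1 by 3.35 ± 0.138 than in MC38 and by 3.19 ± 0.340 than in LLC. Ifi47, Mx2, Cmpk2, Oas3 and Irgm2 also stood among the 8 genes with the largest excess in 4T1 over both lines. Mx2 was at or near 0 in LLC, so its fold there is not used, and without the third control library of LLC the difference lost its call (adjusted p = 1).

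**Figure D5:**
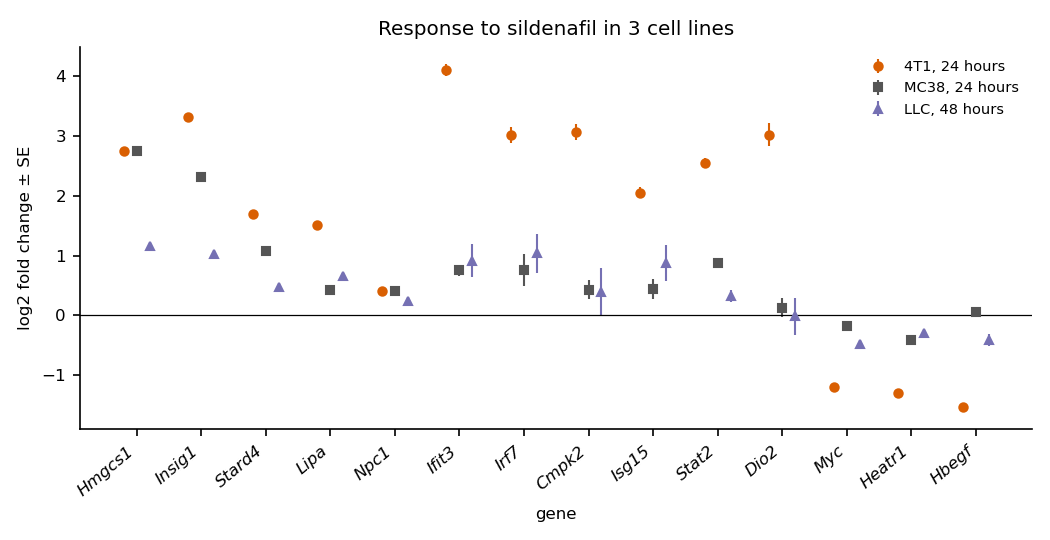
Change (log2 fold change ± SE, sildenafil over control, from the fit over 18 libraries) of 14 genes in 4T1, MC38 and LLC, 3 libraries per group. Ifit3, Irf7, Cmpk2 and Dio2 rose by about 3 or more in 4T1 and changed by under 1.5 in the other lines, while Insig1 and Hmgcs1 rose in all 3 lines.

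Dio2 stood at 1.90, 2.04 and 1.81 CPM in control and 12.8, 12.96 and 21.4 CPM in sildenafil libraries of 4T1, and at 15.4, 13.7 and 15.2 and 15.6, 15.6 and 17.1 CPM in MC38. In LLC it stood at 1.56, 1.43 and 1.38 and 0.951, 1.75 and 1.61 CPM. The groups overlapped in LLC and lay close together in MC38, and the change in 4T1 was higher by 2.89 ± 0.254 and 3.04 ± 0.375. Tcp11l2 completed the 8, with a change of 2.165 ± 0.0997 in 4T1, -0.12 ± 0.164 in MC38 and 0.15 ± 0.107 in LLC.

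The RNA of ribosome biogenesis factors likewise set 4T1 apart. The median change of the 50 biogenesis factors was -0.82 in 4T1, -0.26 in MC38 and 0.00 in LLC, and it was lower in 4T1 for 47 against MC38 and all 50 against LLC. For the 58 S-phase genes it was lower for 46 and 56. Myc changed by -1.204 ± 0.0683 in 4T1, -0.19 ± 0.0732 in MC38 and -0.49 ± 0.0684 in LLC. The 8 genes with the largest deficit in 4T1 against both lines were Acsbg1, Ccdc137, Zfp420, Snhg15, Mettl1, Ccnb1ip1, Epha2 and Hbegf. Epha2, an ephrin receptor, changed by -1.15 ± 0.0450, 0.05 ± 0.0444 and 0.01 ± 0.0482 in the 3 lines, and Acsbg1, an acyl-CoA synthetase, fell in 4T1 (-0.31 ± 0.0576) and rose in MC38 (1.19 ± 0.195) and LLC (1.36 ± 0.161), where its control level was under 1 CPM.

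The change of the 21 sterol synthesis enzymes was higher in 4T1 for 12 against MC38 and 19 against LLC, and lower for 3 and 1. The median change of the 8 mevalonate enzymes was 2.48, 1.89 and 0.84 in 4T1, MC38 and LLC, and it was higher in 4T1 for 6 against MC38 and 8 against LLC. For the 9 enzymes from squalene synthesis to C4 demethylation the medians were 1.93, 1.79 and 0.75. Against MC38 the change was higher in 4T1 for 4 of these 9 and lower for 1. The 4 late enzymes were split against MC38, with 2 higher and 2 lower in 4T1. Mean Hmgcs1 levels went from 45.8 to 306 CPM in 4T1, 98.6 to 664 CPM in MC38 and 120 to 267 CPM in LLC. Insig1 rose by 3.31 ± 0.0423, 2.31 ± 0.0402 and 1.03 ± 0.0390. Its control level was lower in 4T1 (44.9 ± 0.918 CPM) than in MC38 (141 ± 2.54 CPM) or LLC (165 ± 7.92 CPM). Of 38 lysosomal hydrolases the change was higher in 4T1 for 22 against MC38 and 27 against LLC and lower for 2 and 5. Genes of the ATF4 program went the other way against MC38, with a lower change in 4T1 for 11 of 20 and a higher one for 1, and medians of -0.03 in 4T1 and 0.55 in MC38.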

How the data were processed

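RNA was taken from 4T1 cells given DMSO or 100 µM sildenafil citrate for 24 hours, 3 libraries each. Poly(A) RNA libraries were made with a stranded Illumina TruSeq kit and sequenced in pairs, per the labels' protocols. The values are RSEM expected counts per gene, deposited by the authors as 1 table of 18 libraries with 55450 gene IDs. The submitters' processing notes name bcl2fastq 2.17, cutadapt 1.18, STAR 2.7.0f, RSEM 1.3.1 and the mm10 build. Neither the annotation release nor the strand setting used for counting is given in the sources used here. All IDs matched the gene table used here for names, where 217 IDs share a symbol with another ID. RSEM divides reads among near-identical genes by estimate, so members of multigene families and pseudogenes are uncertain.

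Expected counts were rounded and genes with low counts were removed by edgeR's filterByExpr. The 6 libraries were scaled by TMM and tested with edgeR's quasi-likelihood test (edgeR 4.0.16, limma 3.58.1, R 4.3.3) with Benjamini-Hochberg adjustment over 13914 genes at a threshold of 0.05. Differences from MC38 and LLC were contrasts in 1 fit of all 18 libraries over 16040 genes. The steps were tested on simulated counts with far fewer changed genes than were called here, as many raised as lowered. That simulation could not show how scaling behaves when most genes change. Alternatives were DESeq2 1.42.0, other scalings and filters, a test against a 1.2-fold change, and leaving out each library. Depth was 41070021 to 61600646 counts per library, and 3 counts are taken as the floor of detection, 0.0487 to 0.0730 CPM, which covers counting error only.

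The gene lists and the comparison itself were chosen with earlier results of these data known. Members of any list could be named. Up to 4 called members with the largest changes, and up to 3 against the majority, were preferred. Over all genes the rule took the 15 largest rises and falls among called genes of at least 5 CPM without overlap, the 10 most abundant genes, and the 8 largest differences from both other lines in each direction. Promoter windows came from RefSeq on GRCm38.p6, where 9792 of the 13914 tested genes had one. Some genes that the rule takes are not reported here.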

Additional observations from a re-analysis of the deposited data

Results flagged for a closer look

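Genes whose response in 4T1 differed most from both other lines were picked out by the test of the difference itself, with factors and spread shared over 18 libraries, so they are the extremes of 16040 tests. LLC differs from 4T1 in treatment time as well as in line. Values are the 4T1 log2 fold change minus that of the other line.

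Interferon-response genes led the excess in 4T1. Ifit3 exceeded MC38 by 3.35 ± 0.138 and LLC by 3.19 ± 0.340. Ifi47 exceeded them by 3.11 ± 0.169 and 2.99 ± 0.601. Cmpk2 exceeded them by 2.64 ± 0.204 and 2.68 ± 0.450. Oas3 exceeded them by 2.56 ± 0.201 and 2.56 ± 0.446, and Irgm2 by 2.12 ± 0.156 and 2.07 ± 0.215. Mx2 exceeded MC38 by 2.97 ± 0.414. Its fitted difference from LLC was 6.39 ± 1.89, which rests on counts at or near 0 in LLC and is no measure of size. The group means of Ifit3, Ifi47, Oas3 and Cmpk2 were also under 1 CPM in LLC. A larger change is not a higher level: Ifi47 had means of 26.7 and 26.75 CPM in MC38 control and sildenafil libraries. Its means in 4T1 were 1.31 and 11.44 CPM. The remaining 2 were Dio2, which exceeded MC38 by 2.89 ± 0.254 and LLC by 3.04 ± 0.375, and Tcp11l2, which exceeded them by 2.28 ± 0.193 and 2.02 ± 0.146.

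The deficits in 4T1 were smaller. Against MC38 and LLC the difference was -1.500 ± 0.202 and -1.67 ± 0.170 for Acsbg1, -1.28 ± 0.0936 and -1.65 ± 0.0941 for Ccdc137, and -1.28 ± 0.161 and -1.21 ± 0.160 for Zfp420. It was -1.201 ± 0.100 and -1.57 ± 0.102 for Snhg15 and -1.17 ± 0.104 and -1.203 ± 0.0966 for Mettl1, a transfer RNA methyltransferase. It was -1.90 ± 0.381 and -1.17 ± 0.346 for Ccnb1ip1, -1.21 ± 0.0631 and -1.16 ± 0.0657 for Epha2, and -1.60 ± 0.0982 and -1.12 ± 0.121 for Hbegf. Acsbg1 had a mean level of 64.0 CPM in 4T1 control libraries and 0.621 and 0.920 CPM in those of MC38 and LLC, with factors over all 18 libraries.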

How the results depend on the processing

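The 4 counts over all genes stayed within 1.5 times their value under DESeq2, other scalings, no filter, unrounded values, protein-coding genes alone, all 18 libraries in 1 fit and each library left out. Leaving out 1 library gave 4339 to 4830 rises and 4276 to 4734 falls. Library totals gave 5471 rises and 3798 falls, a median shift of 0.068. A filter of 5 CPM in 3 libraries, which tests fewer low genes, left 418 rises and 81 falls of at least 2-fold in place of 834 and 199. A test against a 1.2-fold change, which asks for more than a difference from 0, left 2780 rises and 2225 falls in place of 4658 and 4627. For the differences from MC38, leaving out 1 library gave 2413 to 2626 higher and 2563 to 2690 lower genes, and from LLC 2910 to 3500 and 3236 to 3729.

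Library numbers did not pair the groups: the correlations of the deviations of same-numbered control and sildenafil libraries were 0.0471, 0.0486 and -0.0719. With the replicate block 4587 genes rose and 4503 fell, 835 and 198 of them at least 2-fold, the differences from MC38 counted 2771 higher and 2885 lower genes, and those from LLC 3338 and 3547.

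Values near no change turned sign without a call. Dusp6 went from -0.00129 to 0.0675 with library totals, 0.0255 with upper quartile factors, 0.0070 with no filter, 0.0266 with the 5 CPM filter and 0.0177 in the fit of 18 libraries. With 1 library left out, Dusp6 ranged from -0.0274 to 0.0232, Slfn3 from -0.00866 to 0.0550 and Col1a1 from -0.148 to 0.309. Of 276 called genes that are named with values, 31 lost the call or turned under at least 1 of 16 settings, 28 of them under the test against 1.2-fold. Shares of promoters with a motif in 200 in place of 250 bases moved beyond their 95% interval in 10 of 72 cases. Counts within some lists moved: with library totals 2 rather than 5 NF-kB genes and 1 rather than 3 BCL2 family genes fell, with the 5 CPM filter 3 rather than 5 LXR and efflux genes fell and 3 rather than 5 phosphodiesterases rose, with DESeq2 2 rather than 6 histone genes fell, and in the fit of 18 libraries 15 rather than 40 ribosomal protein genes fell.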

Other observations

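Over all 13914 tested genes 33.5% rose and 33.3% fell. Of 11951 protein-coding genes tested 4331 rose (36.2%) and 4303 fell (36%). The noncoding and pseudogene types that follow had smaller shares of calls in both directions. Of 794 processed pseudogenes, whose reads can be shared with their parent genes, 45 rose (5.67%) and 145 fell (18.3%). Of 296 long intergenic noncoding RNAs 84 rose (28.4%) and 40 fell (13.5%). Of 248 antisense genes, whose reads cannot be parted from those of their partners unless counting used strand, 59 rose (23.8%) and 31 fell (12.5%). Both mitochondrial ribosomal RNAs rose at least 2-fold, while none of the 13 mitochondrial mRNAs rose.

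The E-box CACGTG, searched on both strands of 250 bases before the start, was present in 27.6% of 29 lysosomal hydrolases, 35.7% of 14 clock genes and 8.52% of the 9792 tested genes with a window. It is the letters that TFEB, the clock factors and MYC are known to bind, and 8.89% of 45 ribosome biogenesis genes held it. In the other lists searched the share ran from 0% of 11 interferon-inducible GTPases to 16.7% of 12 proton pump genes. It was 14.3% of 21 MHC class I, peptide loading and immunoproteasome genes. These shares are a description of the letters.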
